A study of Mus musculus with 6 samples.

Results

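The 10 genes described here are the enzymes of hepatic de novo lipogenesis Acly, Acss2, Acaca, Acacb, Fasn, Me1, Elovl6 and Scd1, the lipogenic cofactor Thrsp, and Srebf1, which encodes the transcription factor SREBP1. They were matched by gene symbol, and all 10 were present among the 22599 symbols of the deposited count and FPKM tables and among the 13205 genes that passed the low-count filter. FPKM, the unit of level used here, scales a count by gene length and by the depth of the library. RNA of mouse liver was sequenced in 6 libraries. NcoR1ΔHep (3 libraries, genotype labelled as NcoR1 knockdown) and flox (3 libraries, NcoR1fl/fl, genotype labelled WT) were compared. The name NcoR1ΔHep denotes deletion of the floxed NcoR1 alleles in hepatocytes, and the labels do not name the Cre driver, the age or the sex of the mice. The titles give 0 h of ischemia-reperfusion (IR) for every library, whereas each one carries a treatment label of liver IR, which both groups therefore share, as they do chow feeding and a light-dark cycle. Nothing in the labels ties a library to its own mouse, and the tests below therefore speak only of variation among these 6 libraries.

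De novo lipogenesis turns cytosolic acetyl-CoA into fatty acids. ATP citrate lyase (Acly) and acetyl-CoA synthetase (Acss2) supply the acetyl-CoA, the carboxylases Acaca and Acacb make malonyl-CoA, fatty acid synthase (Fasn) builds palmitate with NADPH that malic enzyme (Me1) helps to provide, and Elovl6 and Scd1 lengthen and desaturate the product. SREBP1 activates these genes in the fed liver after insulin, LXR is an activator of Srebf1 itself, and NCoR1 is a corepressor that LXR, the thyroid hormone receptor and other nuclear receptors recruit in the absence of an activating ligand. In liver the pathway is known to be high after feeding, low in fasting, and to vary with the time of day.

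The proximal promoters of 4 of these genes are shown, because Thrsp, Srebf1 and Fasn had the widest range of levels over the libraries and Acacb was one of the pair of carboxylases that followed another pattern. RefSeq windows (build GRCm38.p6) of 250 bases before to 50 bases after a transcript start were found for 9 of the 10 genes, 12 windows in all. The Thrsp window is chr7:97417501-97417800 (minus strand), the Fasn window chr11:120824498-120824797 (minus strand), the Srebf1 window chr11:60210422-60210721 (minus strand, 1 of 3 Srebf1 windows) and the Acacb window chr5:114165268-114165567 (plus strand). Each sequence runs 5′ to 3′ on the strand of its gene, and capitals mark the motif matches named after them.
Thrsp: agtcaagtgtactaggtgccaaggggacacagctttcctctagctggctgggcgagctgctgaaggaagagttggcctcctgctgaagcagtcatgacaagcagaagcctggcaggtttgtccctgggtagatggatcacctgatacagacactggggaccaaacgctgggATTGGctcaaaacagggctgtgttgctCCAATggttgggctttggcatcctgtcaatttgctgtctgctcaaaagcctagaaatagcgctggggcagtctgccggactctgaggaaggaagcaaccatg
Fasn: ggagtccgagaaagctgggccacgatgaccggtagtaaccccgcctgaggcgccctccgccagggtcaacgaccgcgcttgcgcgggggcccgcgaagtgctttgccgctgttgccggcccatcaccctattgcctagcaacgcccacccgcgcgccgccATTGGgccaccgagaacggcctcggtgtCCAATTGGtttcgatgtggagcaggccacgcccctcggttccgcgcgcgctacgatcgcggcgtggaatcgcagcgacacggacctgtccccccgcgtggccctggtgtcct
Srebf1: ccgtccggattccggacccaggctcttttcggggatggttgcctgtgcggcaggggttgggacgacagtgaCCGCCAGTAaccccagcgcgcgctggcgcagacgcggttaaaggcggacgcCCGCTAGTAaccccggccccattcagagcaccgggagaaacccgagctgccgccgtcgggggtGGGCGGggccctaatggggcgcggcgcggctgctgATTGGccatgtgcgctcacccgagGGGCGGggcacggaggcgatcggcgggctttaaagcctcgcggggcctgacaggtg
Acacb: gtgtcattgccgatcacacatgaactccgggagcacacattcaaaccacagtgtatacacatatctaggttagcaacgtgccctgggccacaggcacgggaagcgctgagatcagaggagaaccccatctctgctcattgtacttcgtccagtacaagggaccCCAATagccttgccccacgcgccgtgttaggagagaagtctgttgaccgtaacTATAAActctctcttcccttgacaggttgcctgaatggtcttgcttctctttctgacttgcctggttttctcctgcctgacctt

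Motifs were searched as exact letters on both strands. CCAAT, the letters bound by NF-Y, a partner of SREBP at lipogenic promoters, occurred in 8 of the 12 windows (7 of 9 genes), and in 37.4% of 32851 mouse windows of the same length. In Fasn 2 of its 3 CCAAT matches overlap, which gives the 8 capitals in a row. GGGCGG, the GC box of Sp1, occurred in 5 of the 12 windows and in 35.7% of all windows, and TATAAA in 1 of 12 (Acacb) and in 13.6%. TACTNGCGG is part of a repeat through which LXR is known to act on this Srebf1 promoter in mouse, and was searched after the window had been read. It matched 2 times in the Srebf1 window, with first bases 179 and 128 bases before the start. At least 1 match occurred in 0.231% of all windows. Near matches were not searched, and the Fasn window holds ccggtagta, which differs in 1 letter from the Srebf1 match CCGCTAGTA. The exact letters therefore do not tell whether other windows hold such a repeat. The sterol regulatory core TCACNCCAC (1.24% of all windows) and the E-box CACGTG (7.15%) matched in 0 of the 12 windows, which says only that these letters are not in these windows.

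Libraries held 36975231 to 38470468 counts, and each of the 10 genes had at least 1653 counts in every library, so counting error was small beside the spread between libraries. Ncor1, the targeted gene, had 5.34, 6.63 and 4.93 FPKM in NcoR1ΔHep 1, 2 and 3, against 6.78, 6.70 and 7.72 FPKM in flox 1, 2 and 3, without a call (edgeR log2 fold change -0.31, SE 0.21, adjusted p = 0.931). The genotypes therefore rest on the labels. NcoR1ΔHep 1 stood apart by sex-linked transcripts: Xist was at 25.5 FPKM there and at most 0.0261 FPKM in the other 5 libraries, and Ddx3y was at 0.0660 FPKM there and at least 11.2 FPKM in the others. No flox library had this pattern, so sex-linked transcripts were not balanced between the groups. By FPKM, NcoR1ΔHep 1 was the highest library for 5 of the 10 genes and NcoR1ΔHep 2 for the other 5. The tests of the 10 genes were also made without NcoR1ΔHep 1, which cannot tell sex apart from other traits of that library. Hepatocyte markers were high in every library, with 50488 to 57587 FPKM summed over 9 genes. Of these 5 were higher and 4 lower in NcoR1ΔHep (median log2 fold change 0.28), with 0 called by edgeR and 1 with an unadjusted p under 0.05.

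The question of the comparison was whether livers labelled as lacking hepatocyte NcoR1 carry more lipogenic transcript. None of the 10 genes passed the adjusted threshold of 0.05 in edgeR, where 0% of the 13205 tested genes were called, and 0 of the 10 had an unadjusted p under 0.05, against 3.35% of the tested genes. DESeq2 called 0 of the 10, against 0.0246% of its tested genes, and its smallest unadjusted p among them was 0.0598 (Srebf1). The point estimates were higher in NcoR1ΔHep for 9 of the 10 genes, against 53.5% of tested genes, and their median was 0.36 (log2), against 0.03 over all tested genes. The count of higher genes was 7 without NcoR1ΔHep 1, 6 without NcoR1ΔHep 2 and 10 without NcoR1ΔHep 3. In none of the 10 genes did the groups separate, against 7.56% of tested genes. The median standard error of the 10 genes was 0.34 on the log2 scale.

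**Figure D1:**
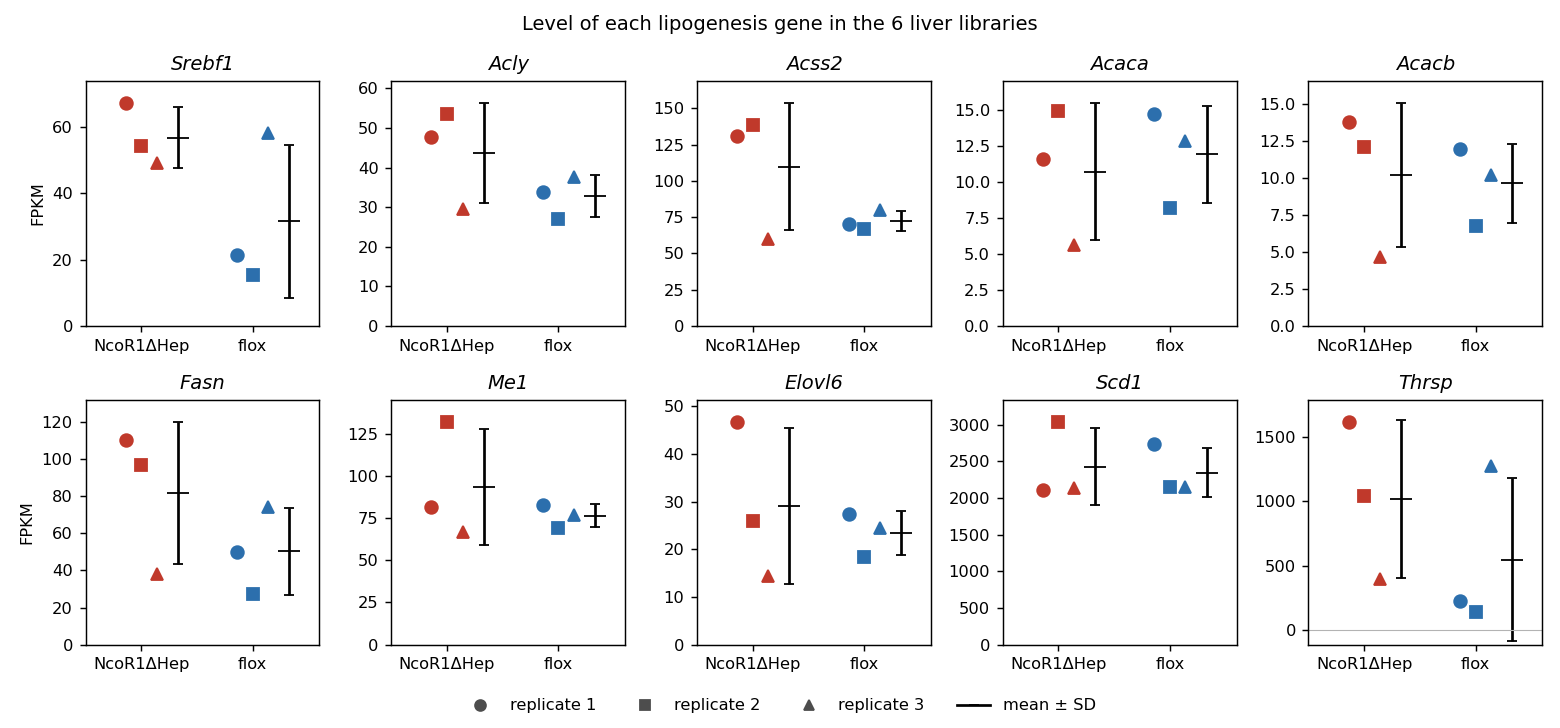
FPKM (y axis, linear) of each gene in the 3 NcoR1ΔHep libraries (red) and the 3 flox libraries (blue), with the mean and SD of each group in black. The groups overlap in every panel. Srebf1 spans 49.2 to 67.2 FPKM in NcoR1ΔHep and 15.3 to 58.1 FPKM in flox, and NcoR1ΔHep 3 (red triangle) is the lowest of the 6 libraries for Acaca, Acacb, Acss2, Elovl6 and Me1.

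Srebf1, the transcription factor of the pathway, was at 67.2, 54.2 and 49.2 FPKM in NcoR1ΔHep 1, 2 and 3, against 21.5, 15.3 and 58.1 FPKM in flox 1, 2 and 3. All 3 NcoR1ΔHep libraries lay above flox 1 and flox 2, but flox 3 lay above NcoR1ΔHep 2 and NcoR1ΔHep 3. The means were 56.9 ± 9.28 FPKM in NcoR1ΔHep and 31.6 ± 23.1 FPKM in flox (SD, n = 3 each). By edgeR this was 0.85 on the log2 scale (SE 0.47, adjusted p = 0.931), with a 95% interval from -0.22 to 1.93. Without flox 3 it was 1.67 (unadjusted p = 0.000341, adjusted p = 0.451), and without flox 2 it was 0.54 (adjusted p = 1), so the estimate turned on which flox library was kept. Without NcoR1ΔHep 1 the estimate was 0.80 (edgeR adjusted p = 0.998). Deposited values are gene totals, so the transcripts that start at different Srebf1 promoters are not told apart.

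The acetyl-CoA suppliers were highest in NcoR1ΔHep 1 and NcoR1ΔHep 2. Acss2, which activates acetate, was at 131, 139 and 59.8 FPKM in NcoR1ΔHep 1, 2 and 3, against 70.5, 66.7 and 80.2 FPKM in flox 1, 2 and 3. Acly, which cleaves citrate, was at 47.8, 53.6 and 29.5 FPKM in NcoR1ΔHep, against 33.8, 27.0 and 37.6 FPKM in flox. In both genes NcoR1ΔHep 1 and 2 lay above every flox library and NcoR1ΔHep 3 lay within or below the flox range. The log2 fold change was 0.59 for Acss2 (SE 0.30, 95% interval -0.10 to 1.28) and 0.42 for Acly (SE 0.25, interval -0.16 to 1.002), both with an edgeR adjusted p = 0.931. Without NcoR1ΔHep 3 that of Acss2 was 0.84 (unadjusted p = 0.00949, adjusted p = 0.626). Exons of Acss2 share 395 bases (3.89% of its annotated exon bases in GENCODE M21) with Gss on the other strand, and the strand setting of the counting is not given in the sources used here.

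Me1, the cytosolic malic enzyme that yields NADPH, was at 81.6, 132 and 66.7 FPKM in NcoR1ΔHep 1, 2 and 3, against 82.8, 69.5 and 77.2 FPKM in flox 1, 2 and 3. NcoR1ΔHep 2 alone was high, and the other 5 libraries lay between 66.7 and 82.8 FPKM. Its estimate of 0.31 (log2, SE 0.27, interval -0.32 to 0.93, edgeR adjusted p = 0.931) became -0.02 without NcoR1ΔHep 2.

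The means of the 2 carboxylases differed between the groups by less than the SD of either group, at 10.7 ± 4.75 FPKM in NcoR1ΔHep and 11.9 ± 3.39 FPKM in flox for Acaca and at 10.2 ± 4.86 FPKM in NcoR1ΔHep and 9.65 ± 2.65 FPKM in flox for Acacb (SD, n = 3 each). Acaca, the cytosolic acetyl-CoA carboxylase 1 that feeds Fasn, was at 11.6, 14.97 and 5.61 FPKM in NcoR1ΔHep 1, 2 and 3, against 14.8, 8.17 and 12.9 FPKM in flox 1, 2 and 3. Acacb, the mitochondrial-surface isoform whose malonyl-CoA restrains carnitine palmitoyltransferase, was at 13.8, 12.1 and 4.68 FPKM in NcoR1ΔHep, against 12.0, 6.76 and 10.2 FPKM in flox. NcoR1ΔHep 3 was the lowest library and flox 2 the next lowest for both genes. Log2 fold changes were -0.14 for Acaca (SE 0.34, interval -0.91 to 0.63, edgeR adjusted p = 0.970) and 0.08 for Acacb (SE 0.35, interval -0.73 to 0.90, adjusted p = 0.986), and these intervals leave room for a difference in either direction. The sign of Acacb changed without NcoR1ΔHep 1 (-0.13), NcoR1ΔHep 2 (-0.07) or flox 2 (-0.08), and that of Acaca without NcoR1ΔHep 3 (0.12). The ratio of Acaca to Acacb was 0.841, 1.24 and 1.20 in NcoR1ΔHep 1, 2 and 3 and 1.23, 1.21 and 1.26 in flox 1, 2 and 3, so 5 of the 6 libraries held nearly the same ratio and NcoR1ΔHep 1 held relatively more Acacb.

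Fasn, the multifunctional synthase, was at 111, 96.7 and 38.1 FPKM in NcoR1ΔHep 1, 2 and 3, against 49.9, 27.1 and 74.1 FPKM in flox 1, 2 and 3. NcoR1ΔHep 1 and 2 exceeded every flox library, while NcoR1ΔHep 3 lay below flox 1 and flox 3. The means were 81.8 ± 38.5 FPKM in NcoR1ΔHep and 50.4 ± 23.5 FPKM in flox (SD, n = 3 each). The genotypes differed by a log2 fold change of 0.69, whose interval ran from -0.32 to 1.71 (SE 0.44, edgeR adjusted p = 0.931). This was 1.12 without flox 3 (adjusted p = 0.800), 0.99 without NcoR1ΔHep 3 (adjusted p = 0.626) and 0.41 without flox 2 (adjusted p = 1). Without NcoR1ΔHep 1 the log2 fold change was 0.49 (edgeR adjusted p = 0.998).

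Elovl6, the elongase that turns palmitate into stearate, was at 46.7, 26.0 and 14.3 FPKM in NcoR1ΔHep 1, 2 and 3, against 27.4, 18.4 and 24.4 FPKM in flox 1, 2 and 3. The NcoR1ΔHep values enclosed all 3 flox values. Its log2 fold change of 0.30 (SE 0.35, interval -0.51 to 1.12, edgeR adjusted p = 0.936) was -0.13 without NcoR1ΔHep 1. Scd1, the stearoyl-CoA desaturase that makes oleate and palmitoleate, was at 2108, 3039 and 2139 FPKM in NcoR1ΔHep, against 2734, 2153 and 2152 FPKM in flox. It varied least of the 10 genes, with a highest library 1.44 times the lowest. Its genotype estimate was 0.08 (log2, SE 0.29, edgeR adjusted p = 0.983), with an interval of -0.58 to 0.74. Scd1 took 1.02% to 1.47% of all counts of a library, while its paralogs Scd2 and Scd3 had at most 766 and 192 counts. The sources used here do not say how reads shared between paralogs were counted, so the levels of Scd2 and Scd3 are uncertain.

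Thrsp, the thyroid hormone-responsive Spot 14 protein that promotes lipogenesis, had the widest range. It was at 1617, 1039 and 394 FPKM in NcoR1ΔHep 1, 2 and 3, against 227, 136 and 1278 FPKM in flox 1, 2 and 3. The highest library was 11.9 times the lowest, and within flox alone flox 3 was 9.41 times flox 2. All 3 NcoR1ΔHep libraries lay above flox 1 and flox 2, and flox 3 lay above NcoR1ΔHep 2 and 3. With that spread the log2 fold change of 0.85 carried an interval of -1.03 to 2.74 (SE 0.82, edgeR adjusted p = 0.931). It was 2.498 without flox 3 (adjusted p = 0.793) and 0.39 without flox 2 (adjusted p = 1). Without NcoR1ΔHep 1 the log2 fold change was 0.44 (edgeR adjusted p = 0.998).

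**Figure D2:**
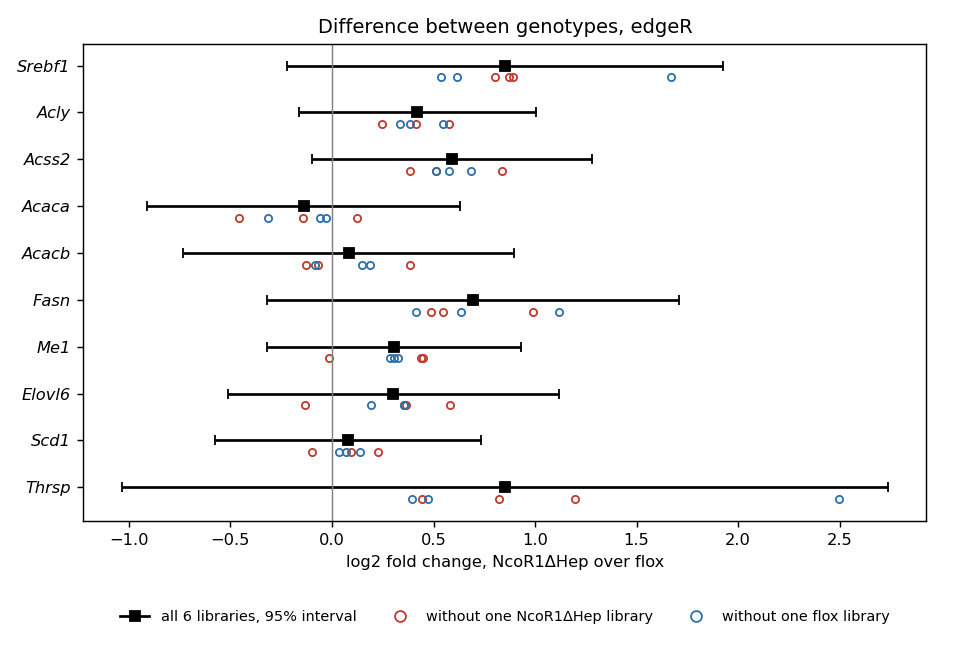
Log2 fold change of NcoR1ΔHep over flox (x axis) for each gene (y axis). Black squares and bars are the edgeR estimate and its 95% interval from all 6 libraries, and open circles leave out 1 NcoR1ΔHep library (red) or 1 flox library (blue). Every interval spans 0, and the circles spread most for Thrsp, between 0.39 and 2.498.

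By level per length, averaged over the 6 libraries, the order was Scd1 (2388 FPKM), Thrsp (782), Acss2 (91.2), Me1 (85.0), Fasn (66.1), Srebf1 (44.2), Acly (38.2), Elovl6 (26.2), Acaca (11.3) and Acacb (9.93 FPKM). Scd1 was above Thrsp in all 6 libraries, and its lowest library was above the highest of Thrsp. Acss2 and Me1 did not differ beyond their spread, since Acss2 was the higher in 3 of the 6 libraries. Srebf1 was above Acly in 4 libraries, and Acaca was above Acacb, Fasn above Srebf1 and Me1 above Fasn in 5. Acly exceeded Elovl6, and Elovl6 exceeded Acaca, in all 6 libraries although their ranges overlapped.

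Relative to their own means, the genes followed more than 1 pattern over the libraries. On a log2 CPM scale (counts relative to library depth, with TMM factors), flox 1 was 1.01 below the mean of the 6 libraries for Srebf1 and 1.41 below for Thrsp, but 0.31 above it for Acaca and 0.21 above it for Acacb. In NcoR1ΔHep 3 Srebf1 was 0.49 above its mean while Fasn was 0.47, Acaca 0.78, Acacb 0.84 and Elovl6 0.62 below theirs. NcoR1ΔHep 2 was among the top 3 libraries for all 10 genes by FPKM (9 by CPM with TMM factors), NcoR1ΔHep 3 for 0 (2 by CPM with TMM factors) and flox 2 for 1 (0 by CPM with TMM factors). The pair with the most alike profiles was Acly and Acss2, with a root mean square difference of 0.17 on the log2 scale over 6 libraries. Scd1 with Me1 (0.19), Acly with Me1 (0.20) and Acaca with Acacb (0.20) followed, and Scd1 with Thrsp (1.35) differed most.

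**Figure D3:**
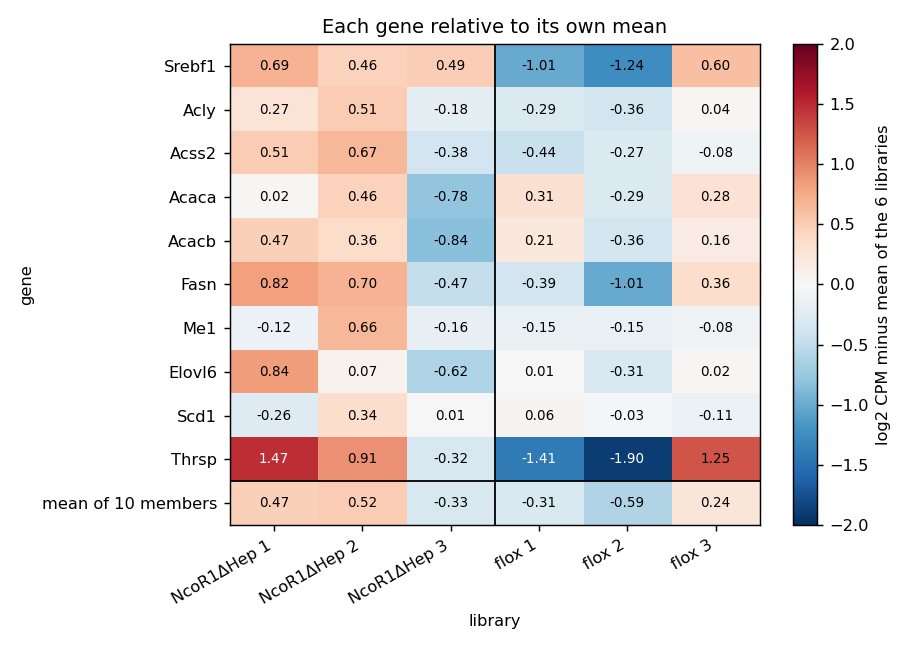
Log2 CPM of each gene (rows) in each library (columns, NcoR1ΔHep left of the line and flox right of it) minus the gene's mean over the 6 libraries, with the mean of the 10 genes in the bottom row. Srebf1 is at 0.49 in NcoR1ΔHep 3, where Acaca is at -0.78, and at -1.01 in flox 1, where Acaca is at 0.31.

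Target level per unit of Srebf1 transcript differed between libraries of the same genotype. The ratio of Fasn to Srebf1 in FPKM was 1.65, 1.78 and 0.774 in NcoR1ΔHep 1, 2 and 3, against 2.32, 1.77 and 1.28 in flox 1, 2 and 3. The ratio of Acaca to Srebf1 was 0.173, 0.276 and 0.114 in NcoR1ΔHep, against 0.688, 0.534 and 0.221 in flox. NcoR1ΔHep 3 had the lowest ratio in both, and flox 1 the highest. The ratio of Scd1 to Srebf1 was 31.4, 56.1 and 43.5 in NcoR1ΔHep, against 127, 141 and 37.04 in flox. Here flox 1 and flox 2 were high, and they were the libraries with the lowest Srebf1. For Thrsp over Srebf1 the values were 24.1, 19.2 and 8.01 in NcoR1ΔHep, against 10.6, 8.87 and 22.0 in flox. The groups overlapped in all 4 ratios, which share their denominator. Of 10 ratios computed between these genes, the groups separated in 1, that of Fasn to Acaca, which compares the synthase with the carboxylase that feeds it. It was 9.53, 6.46 and 6.80 in NcoR1ΔHep 1, 2 and 3, against 3.38, 3.32 and 5.76 in flox 1, 2 and 3. All ratios were chosen after the values were seen, and no test was run on them.

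**Figure D4:**
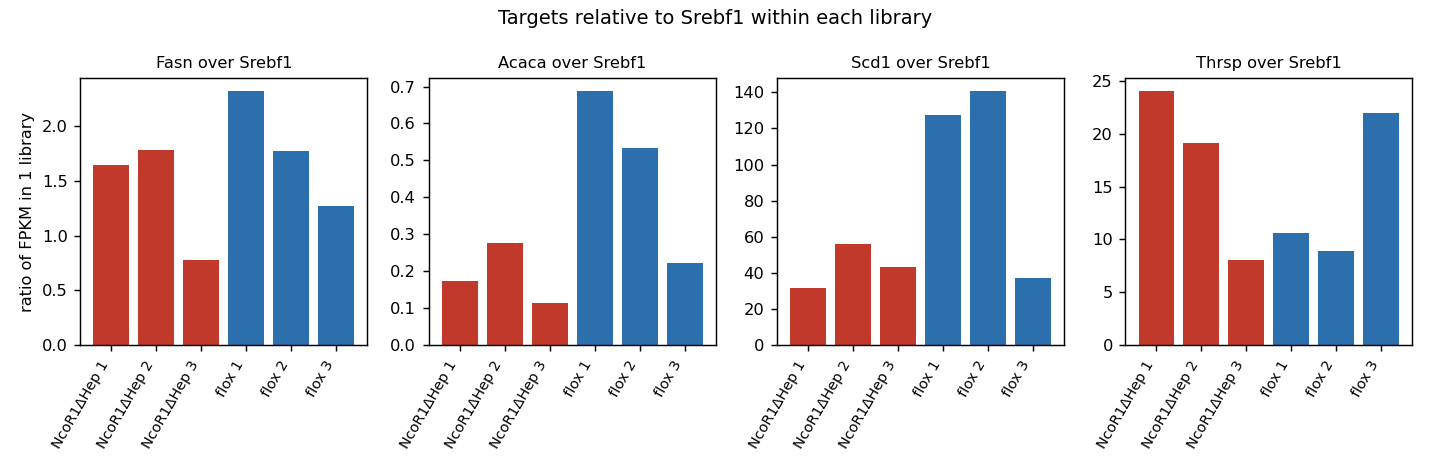
Ratio of the FPKM of Fasn, Acaca, Scd1 and Thrsp to that of Srebf1 (y axis, linear from 0) in each NcoR1ΔHep library (red) and flox library (blue). NcoR1ΔHep 3 has the lowest ratio for Fasn (0.774), Acaca (0.114) and Thrsp (8.01), and flox 1 and flox 2 have the highest for Scd1 (127 and 141).

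Among genes that process or regulate SREBP and its partners, 27 were tested, 15 were higher and 12 lower in NcoR1ΔHep, 0 passed edgeR's adjusted threshold and 1 had an unadjusted p under 0.05 (median log2 fold change 0.09). That gene was Insig2, whose protein holds the SREBP-SCAP complex in the endoplasmic reticulum. Insig2 was at 10.4, 19.6 and 30.2 FPKM in NcoR1ΔHep 1, 2 and 3, against 71.6, 57.0 and 21.6 FPKM in flox 1, 2 and 3. It was high in flox 1 and flox 2, where Srebf1 was low, and the groups overlapped through flox 3 (log2 fold change -1.24, SE 0.53, edgeR adjusted p = 0.931). Ppargc1b, a coactivator of SREBP1, was at 0.754, 0.668 and 0.888 FPKM in NcoR1ΔHep, against 0.293, 0.517 and 0.597 FPKM in flox, with every NcoR1ΔHep library above every flox library (log2 fold change 0.72, SE 0.35, adjusted p = 0.931). Groups separated in 7.56% of all tested genes. Within this list Ncor1 and Rxra separated in the other direction, Rxra at 36.1, 51.9 and 39.4 FPKM in NcoR1ΔHep, against 56.2, 52.6 and 58.0 FPKM in flox. The LXR genes Nr1h3 and Nr1h2 had log2 fold changes of -0.04 and 0.10, with adjusted p of 0.987 and 0.959.

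Of the other lipogenesis genes, 26 were tested, 11 were higher and 15 lower, with 0 called and a median log2 fold change of -0.10. Scd3, a desaturase paralog, had the smallest p (log2 fold change -2.61, SE 1.04, edgeR adjusted p = 0.931), from 0 to 192 counts in a library. Acsl3, an acyl-CoA synthetase, was at 11.04, 5.68 and 6.53 FPKM in NcoR1ΔHep 1, 2 and 3, against 6.59, 3.42 and 4.98 FPKM in flox (0.66, SE 0.29, edgeR adjusted p = 0.931). Mid1ip1, the paralog of Thrsp, is named because of its values. Its level was 50.9, 23.8 and 41.9 FPKM in NcoR1ΔHep, against 17.2, 10.01 and 41.1 FPKM in flox, so it was low in the same flox libraries as Thrsp. Of 15 genes of triglyceride assembly, 5 were higher and 10 lower, with 0 called and a median of -0.09. The smallest p values were those of the acyltransferases Gpat4 (log2 fold change -0.52, SE 0.25) and Agpat3 (-0.40, SE 0.20), both with an edgeR adjusted p = 0.931.

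For 3 genes of the fed and fasted state the groups overlapped. Igfbp1, which insulin represses, was at 165, 494 and 79.6 FPKM in NcoR1ΔHep 1, 2 and 3, against 241, 97.4 and 339 FPKM in flox 1, 2 and 3. Pck1, the gluconeogenic carboxykinase, lay between 572 and 817 FPKM in all libraries, and Cpt1a, which imports fatty acids into mitochondria for oxidation, had 47.0, 53.8 and 78.0 FPKM in NcoR1ΔHep, against 77.0, 85.1 and 70.1 FPKM in flox. Igfbp1 did not follow Srebf1 over the libraries. Cpt1a was lowest in NcoR1ΔHep 1, NcoR1ΔHep 2 and flox 3, the libraries in which the mean profile of the 10 lipogenesis genes was above 0. Of 16 insulin and sugar genes 13 were higher and 3 lower with a median of 0.10. The smallest p values there were those of the insulin receptor substrate Irs1 (log2 fold change 0.39, SE 0.29) and of glucose-6-phosphatase G6pc (-0.42, SE 0.32). Of 15 fasting genes 5 were higher and 10 lower with a median of -0.15, and the smallest p values were those of the lipid droplet protein Plin5 (-0.46, SE 0.23) and the thioesterase Acot2 (0.96, SE 0.52). On the centred log2 CPM scale the fasting list averaged -0.14, -0.36 and 0.10 in NcoR1ΔHep 1, 2 and 3. In flox 1, 2 and 3 it averaged 0.61, 0.25 and -0.46. Its sign was opposite to that of the mean profile of the 10 lipogenesis genes in every library. The fasting list includes Cidea, at 0, 0.161 and 6.24 FPKM in NcoR1ΔHep 1, 2 and 3. In flox 1, 2 and 3 Cidea was at 179, 0.558 and 0.0465 FPKM. A gene with that range can by itself move the list average, and the signs without Cidea were not computed. The part of feeding state in the lipogenic values was not tested. No gene of these lists passed edgeR's adjusted threshold, and none had an unadjusted p under 0.05.

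The clock transcripts Dbp and Arntl divided the libraries as Srebf1 did. Of 16 clock genes tested, 13 were higher and 3 lower in NcoR1ΔHep, with a median log2 difference of 0.41, 0 called by edgeR and 1 (Arntl) with an unadjusted p under 0.05. Dbp, a direct target of the clock activators with a strong daily rhythm in liver, was at 92.6, 41.9 and 37.6 FPKM in NcoR1ΔHep 1, 2 and 3, against 0.948, 3.76 and 47.2 FPKM in flox 1, 2 and 3. Flox 1 and flox 2 were low for Dbp, Srebf1 and Thrsp alike. Arntl, which encodes BMAL1, was at 0.0305, 0.109 and 0.0709 FPKM in NcoR1ΔHep, against 1.29, 0.702 and 0.0983 FPKM in flox (log2 fold change -3.23, SE 0.84, edgeR adjusted p = 0.931). It was among the 5 genes that DESeq2 called over the whole table (DESeq2 adjusted p = 0.0317), and the groups overlapped through flox 3. Nfil3, a repressor of D-box genes, had a log2 fold change of -1.05 (SE 0.47, edgeR adjusted p = 0.931). The time of day at which livers were taken is not in the labels, and the part of the clock difference in the Srebf1 and Thrsp values was not tested.

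**Figure D5:**
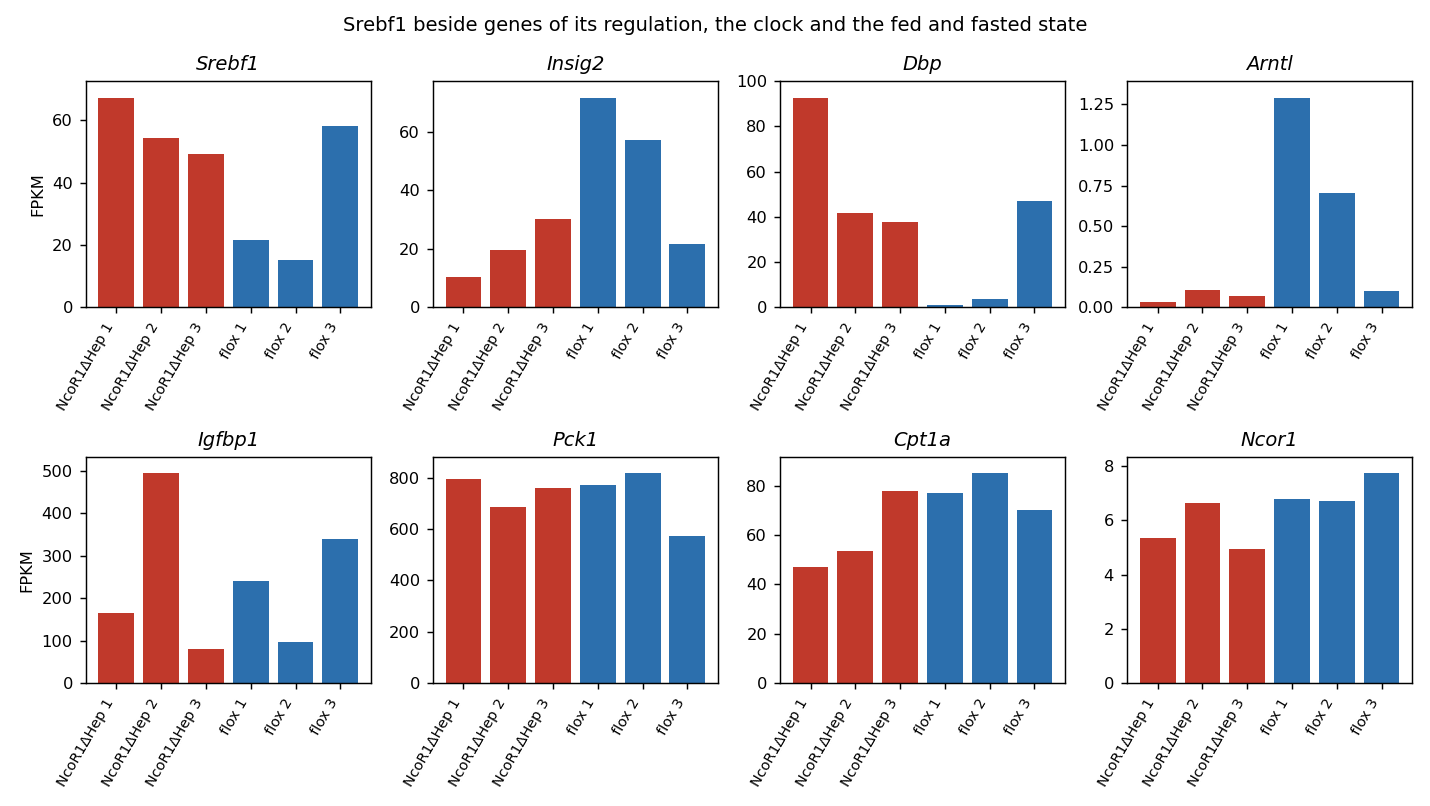
FPKM (y axes, linear from 0) of Srebf1, Insig2, Dbp, Arntl, Igfbp1, Pck1, Cpt1a and Ncor1 in the 3 NcoR1ΔHep libraries (red) and the 3 flox libraries (blue). Flox 1 and flox 2 are low for Srebf1 (21.5 and 15.3) and Dbp (0.948 and 3.76) and high for Insig2 (71.6 and 57.0) and Arntl (1.29 and 0.702).

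Markers of other cells were set beside these values, because adipocytes also carry the lipogenic enzymes. Of the 9 adipocyte markers in the table, Adipoq was at most 0.307 FPKM and Plin1 at most 0.0131 FPKM in any library, and both were listed at 0 in flox 1. The sum of 8 of them, leaving out Car3 because liver expresses it strongly, was 16.0, 13.2 and 24.8 FPKM in NcoR1ΔHep 1, 2 and 3, against 166, 13.0 and 15.9 FPKM in flox 1, 2 and 3, and Cfd made up 114 FPKM of the flox 1 sum. Cidec, Fabp4, Pparg, Lipe and Retn were also highest in flox 1, Cidec at 20.5 FPKM against at most 3.22 FPKM in the other libraries and Fabp4 at 20.4 FPKM against at most 10.8 FPKM. Of the 9 adipocyte markers 6 were tested, all 6 were lower in NcoR1ΔHep, and 0 were called by edgeR. The sinusoidal endothelial list was lower in NcoR1ΔHep for 10 of its 10 genes, with 0 called by edgeR, 2 with an unadjusted p under 0.05, and a median of -0.63 (log2). Its summed level was 102, 56.4 and 41.3 FPKM in NcoR1ΔHep and 161, 60.3 and 91.1 FPKM in flox. Of 10 Kupffer cell markers 2 were higher and 8 lower in NcoR1ΔHep, with 0 called and a median of -0.36 (log2). Summed, they came to 196, 293 and 116 FPKM in NcoR1ΔHep, against 272, 175 and 278 FPKM in flox. Stellate cell and fibroblast markers were higher in NcoR1ΔHep for 8 of 8 genes, with 0 called and a median of 0.09 (log2). Of 4 cholangiocyte markers tested 3 were higher and 1 lower, with 0 called, 1 with an unadjusted p under 0.05 and a median of 0.67 (log2). The cholangiocyte sum was 36.2, 102 and 22.1 FPKM in NcoR1ΔHep 1, 2 and 3, against 25.7, 25.1 and 33.8 FPKM in flox 1, 2 and 3, of which Spp1 made up 99.0 FPKM in NcoR1ΔHep 2. NcoR1ΔHep 2, which was among the top 3 libraries for all 10 lipogenesis genes, thus had the highest cholangiocyte sum. Neutrophil markers summed to 6.93, 12.0 and 7.67 FPKM in NcoR1ΔHep 1, 2 and 3, against 3.51, 3.87 and 22.6 FPKM in flox 1, 2 and 3. That sum was thus low in flox 1 and flox 2, as Srebf1 and Thrsp were. Only 3 of the 8 neutrophil markers passed the count filter. All 3 were lower in NcoR1ΔHep, with 0 called by edgeR and a median of -0.07 (log2). Of 8 lymphocyte markers 5 were higher and 3 lower (median 0.11), and of 5 red cell markers 2 were higher and 3 lower (median -0.48), with 0 called. NcoR1ΔHep 3 had the lowest sum of the endothelial, Kupffer cell, cholangiocyte and lymphocyte lists. The part of cell composition in the lipogenic values was not tested. In bulk RNA, fewer cells of a type and less RNA per cell cannot be told apart.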

How the data were processed

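The authors deposited 2 tables of the 6 libraries, per the file headers: raw read counts by gene symbol, and FPKM, in which each count is scaled by gene length and library total. For the 10 genes both tables gave a single gene length in every library. Per the submitters' processing notes the builds GRCm38, mm10 and hg38 were named without a role. The sources used here name no aligner, counter or strand setting. Per the labels' protocols, libraries were made from total RNA with a SMARTer mRNA kit.

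Genes were filtered with filterByExpr (minimum count 10, minimum total 15), scaled with TMM factors and tested with the quasi-likelihood test of edgeR (version 4.0.16, under R 4.3.3), NcoR1ΔHep over flox, two-sided, with Benjamini-Hochberg adjustment over all 13205 tested genes and a threshold of 0.05. Profiles are log2 CPM with a prior count of 1. The model held the group alone. Alternatives were DESeq2 1.42.0, limma-voom and limma 3.58.1 on log2(FPKM + 1) or log2(FPKM + 0.1), other scaling factors, other filters, a robust fit, the replicate block and leaving out each library. Named genes were the 10 genes, the 2 smallest p-values of each context list, the 5 genes closest in profile to Srebf1 and to the mean of the 10, and fixed clock, feeding-state and sex-linked genes. A gene under that rule is not reported here. The members and lists were chosen with earlier results of these data known. Exon overlaps come from GENCODE M21, and promoters from RefSeq (GRCm38.p6).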

Additional observations from a re-analysis of the deposited data

How the results depend on the processing

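No setting called any of the 10 genes. Over 18 alternatives for each gene, 169 of 180 log2 fold changes kept the direction and 11 reversed, and Srebf1, Fasn, Thrsp, Acss2 and Acly had none of the reversals. Acacb reversed with limma-voom (-0.0071), limma on log2(FPKM + 1) with and without the filter (-0.012 in both) and log2(FPKM + 0.1) (-0.025). When 1 library was left out, the log2 fold change ran from -0.13 to 0.38 for Acacb, from -0.13 to 0.58 for Elovl6, from -0.10 to 0.23 for Scd1, from -0.016 to 0.45 for Me1 and from -0.46 to 0.12 for Acaca. For Srebf1 an unadjusted p under 0.05 appeared in 5 alternatives, which were limma-voom, limma on log2(FPKM + 1) and on log2(FPKM + 0.1) with the filter, the replicate block, and the fit without flox 3. Its adjusted p ran from 0.451 to 1 over all alternatives. The median of the 10 genes ran from 0.31 to 0.58 when 1 library was left out and from 0.30 to 0.41 in the other settings. The count of higher genes ran from 6 to 10 when 1 library was left out. Over all genes edgeR called 0 and DESeq2 called 5, a difference whose cause was not tested.

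The labels do not say what a replicate number marks. Deviations of same-numbered libraries from their group means correlated over genes at 0.02, -0.32 and -0.46 for replicates 1, 2 and 3. With so few libraries these correlations cannot exclude a shared litter, day or batch. Whole profiles were compared by Pearson correlation of log2 CPM between libraries. It was highest across the groups, for NcoR1ΔHep 2 with flox 3 (0.9838) and NcoR1ΔHep 3 with flox 2 (0.9811). The closest pair within a group was flox 1 with flox 2 (0.9745). The cause of this likeness across the groups was not tested. With the replicate block the median log2 fold change of the 10 genes was 0.33, 9 were higher and 0 were called. The spread between libraries, not depth, limits these comparisons.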

Other observations

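Outside the lists above, the genes whose profiles over the 6 libraries were closest to that of Srebf1, by root mean square difference of centred log2 CPM among 10218 genes searched, were Gm31734 (0.15), Slc5a6 (0.17), Gm46546 (0.17), Jph1 (0.20) and Coq10b (0.25). Slc5a6, the multivitamin transporter that carries biotin, the cofactor of the acetyl-CoA carboxylases, was at 1.80, 1.78 and 1.49 FPKM in NcoR1ΔHep 1, 2 and 3, against 0.758, 0.582 and 2.003 FPKM in flox 1, 2 and 3. Coq10b was at 57.3, 53.9 and 46.2 FPKM in NcoR1ΔHep, against 12.8, 13.7 and 41.7 FPKM in flox. Closest to the mean profile of the 10 genes were Mier2 (0.06), Pcbp4 (0.07), Dedd2 (0.08), Hddc2 (0.09) and Bambi (0.09). Several of these genes were at low levels, with at most 0.355 FPKM for Gm31734, 0.160 for Jph1, 0.170 for Hddc2, 0.451 for Bambi and 0.772 for Mier2. With 6 libraries and this many genes searched, close profiles are a description only.

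The genes of this paragraph were picked once their values were known. Lpin1, a phosphatidate phosphatase of triglyceride synthesis, was at 34.7, 43.9 and 4.59 FPKM in NcoR1ΔHep 1, 2 and 3, against 6.83, 9.41 and 57.5 FPKM in flox 1, 2 and 3. It was low in NcoR1ΔHep 3, flox 1 and flox 2, the 3 libraries in which the mean profile of the 10 lipogenesis genes was below 0. Dgat2, which completes triglyceride synthesis, was at 229, 214 and 162 FPKM in NcoR1ΔHep, against 157, 141 and 220 FPKM in flox, with the same 3 libraries lowest. The ChREBP gene Mlxipl was at 93.9 FPKM in NcoR1ΔHep 1, and no other library exceeded 28.8 FPKM. Cidea, a lipid droplet protein, was at 179 FPKM in flox 1 and at most 6.24 FPKM in the other 5 libraries.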
